A study of Mus musculus with 16 samples.

Results

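The contactins and the L1 family of adhesion molecules were taken as the rows of the count matrix that carry the gene symbols Cntn1, Cntn2, Cntn3, Cntn4, Cntn5, Cntn6, Nrcam, Nfasc, L1cam and Chl1. All 10 symbols were found, 1 row each. Each was followed through the 17 clusters of spinal cord cells named by the authors and through every time point.

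Contactins are surface proteins built of immunoglobulin and fibronectin repeats and held in the membrane by a lipid anchor. L1 family proteins share that build but cross the membrane, and their short tails bind ankyrins. In the spinal cord both groups are known for steering axons and for holding axons and myelinating glia together around the node of Ranvier.

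Spinal cord cells of 16 mice were measured by single-cell RNA sequencing with the 10x Genomics Chromium 3′ chemistry, with 1 library per mouse. Mice were 8 to 10 weeks old. WT mice were Ryk+/+,GFAPcreERT2 and cKO mice were Rykfl/fl,GFAPcreERT2, so all animals carried the inducible Cre, and all had been given tamoxifen. Mice of each genotype were uninjured (labelled Sham) or had a dorsal column lesion at the cervical level, with tissue taken at 1 d, 7 d or 14 d and 2 mice in each of the 8 groups. The series asks what the loss of Ryk, a Wnt receptor, from astrocytes does after such a lesion. Cre was driven by a GFAP promoter, so deletion could reach the cells in which that promoter was active when tamoxifen was given, and its extent was not measured in these libraries. Tissue was digested with pronase, a protease mixture, in the presence of actinomycin D, which blocks transcription.

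The matrix holds 53347673 unique molecular identifiers (UMIs), each standing for 1 captured RNA molecule. WT 1 d replicate 2 kept 1 cell with 266 UMIs and was left out, which leaves 1 WT mouse at 1 d. In the remaining 15 mice there were 208 to 1845 cells and 536263 to 9008729 UMIs per mouse, with a median of 3032957. The replicate 1 mice of both genotypes at 1 d and 7 d were shallow, with 414 to 548 UMIs in the median cell, against 1040.5 to 3637 in the other 11 mice. The same 4 mice shared 28 to 115 cell barcodes with each other, whereas other pairs of mice shared at most 4, and 2.37% of all cells had a barcode also seen in another mouse. The cell names state another condition than the sample titles for 6 mice, all replicate 2, and the titles were followed. The treatment in the deposited cell table differed from the title for 0 mice. The replicate number is the batch number of the cell table in 16 of 16 mice.

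Levels are given as CPM: the UMIs of a gene, summed over the cells of a mouse in a cluster and scaled to the same total. Ryk itself (ENSMUSG00000032547.12, chromosome 9 of mm10, 102834917 to 102908305) had 3585 UMIs. In Cluster 7, the cluster with the most Ryk among those called astrocytes, it stood at 123 and 138 CPM in uninjured WT mice and at 78.3 and 192 CPM in uninjured cKO mice, in replicates 1 and 2. At 1 d it was 129 CPM in the WT mouse and 36.1 and 117 CPM in cKO mice. At 7 d it was 239 and 147 CPM in WT and 56.1 and 138 CPM in cKO, and at 14 d 152 and 139 CPM in WT and 165 and 153 CPM in cKO. The genotypes overlapped in the uninjured mice. The cKO mice lay below the WT mice at 1 d and 7 d and above them at 14 d. The lowest cKO values of 36.1 and 56.1 CPM rest on 1 and 2 UMIs, and the WT values of 129 and 239 CPM also come from shallow mice. Over the injured mice Ryk differed by −0.11 on the log2 scale between cKO and WT (standard error 0.36, edgeR adjusted p = 0.955, n = 6 and 5). Reads from the 3′ end need not cover the sequence removed by Cre. Whether they do was not examined here, so these counts do not settle whether Ryk was deleted.

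The 10 genes lie on 6 chromosomes, and some are close neighbours. Cntn2 (ENSMUSG00000053024.14, 132509427 to 132543256) and Nfasc (ENSMUSG00000026442.14, 132564690 to 132741797) are 21.4 kb apart on the minus strand of chromosome 1 of mm10. Cntn3 (ENSMUSG00000030075.10), Chl1 (ENSMUSG00000030077.11), Cntn6 (ENSMUSG00000030092.14) and Cntn4 (ENSMUSG00000064293.14) share 4537 kb of chromosome 6. Cntn1 (ENSMUSG00000055022.14) lies on chromosome 15, 92051165 to 92341967, and Nrcam (ENSMUSG00000020598.16) on chromosome 12, 44328885 to 44601964. Cntn5 (ENSMUSG00000039488.15) lies on chromosome 9 and L1cam (ENSMUSG00000031391.18) on chromosome X. Together the members had 70976 UMIs, 0.133% of all, and 54.4% of the cells held at least 1 of them. Nfasc had the most UMIs (18548) and L1cam the fewest (660).

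Clusters were checked against marker lists before their names were used. Clusters 2, 5 and 7 are the ones the authors called astrocytes. Cluster 7 held 11643 CPM of the 8 astrocyte markers and Cluster 5 held 15071 CPM, with 0 of the 8 at 0 in either, but Cluster 5 also held 13540 CPM of the 6 oligodendrocyte markers, Mbp (9125 CPM) leading. Of the 7 neuron markers, Nefl (1015 against 257 CPM), Snap25 (621 against 497 CPM) and Stmn2 (219 against 130 CPM) were higher in Cluster 5 than in neurons. Syt1, Rbfox3, Slc17a6 and Gad1 were lower. Cluster 2 had the highest level of 4 of the 7 neuron markers and of 0 of the 8 astrocyte markers, and its leading genes were Nefh, Nefl, Kif5a and Nefm. Clusters are therefore called by number where the lists disagree with the name. Cluster 11 (oligodendrocyte precursor cells, OPC) had the highest level of 4 of 5 OPC markers, with Lhfpl3 the most abundant, and Cluster 6, which serves as a cell type that should lack these genes, had the highest level of 5 of 6 microglial markers.

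Cntn1 was highest in OPC and Cluster 7. It is the contactin of the axonal side of the paranodal junction and, in glia, a ligand of the phosphatase Ptprz1. Its mean level was 1461 ± 406 CPM (SD, n = 14 mice) in OPC and 1212 ± 181 CPM (n = 15) in Cluster 7, which differ by less than the larger SD, with OPC higher in 11 of 14 mice. Cluster 5 followed at 625 ± 203 CPM, below Cluster 7 in 14 of 14 mice, then neurons at 356 ± 113 CPM and Cluster 2 at 344 ± 135 CPM. Cluster 6 was at 8.995 ± 8.14 CPM. Cntn2, which joins axon and myelin at the juxtaparanode, was found in other cells. It was highest in the oligodendrocytes of Cluster 4, at 532 ± 142 CPM (n = 15), and of Cluster 8, at 412 ± 176 CPM (n = 14), and Cluster 4 was higher in 12 of 14 mice although the means lie within 1 SD. Neurons had 151 ± 84.4 CPM of Cntn2, and Cluster 7 had 8.98 ± 10.2 CPM.

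**Figure D1:**
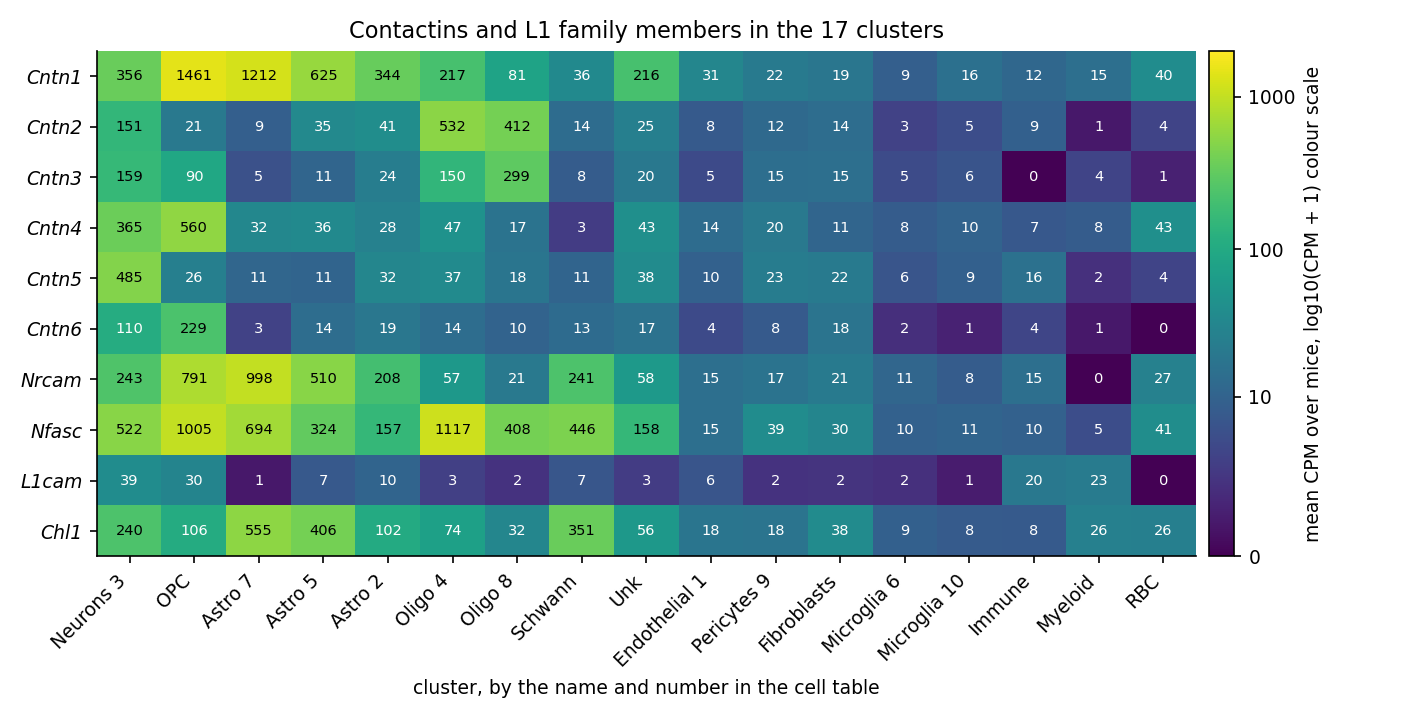
Mean level of the 10 members in the 17 clusters, as CPM averaged over mice with at least 10 cells in the cluster, with the colour on a log10 scale of CPM plus 1. Cntn5 is concentrated in neurons, whereas Nrcam and Chl1 are highest in Cluster 7 and Cntn2 in the oligodendrocytes of Cluster 4.

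Cntn3, Cntn4, Cntn5 and Cntn6 are contactins known mainly from neurons, where they take part in neurite growth and in synapse formation. Cntn5 fitted that background: neurons held 485 ± 211 CPM (n = 15) and 80.2% of its UMIs, and the next cluster, Unk, held 38.2 ± 37.8 CPM. Cntn4 and Cntn6 had their highest means in OPC instead, at 560 ± 243 CPM and 229 ± 73.8 CPM (n = 14), against 365 ± 165 CPM and 110 ± 66.3 CPM in neurons. OPC exceeded neurons in 10 of 14 mice for Cntn4, a difference within 1 SD, and in 13 of 14 mice for Cntn6. By number of molecules neurons still led, with 57.0% of the UMIs of Cntn4 and 55.6% of those of Cntn6, because OPC made up 3.50% of the cells. Cntn3 was highest in the oligodendrocytes of Cluster 8, at 299 ± 164 CPM, followed by neurons at 159 ± 89.1 CPM, Cluster 4 at 150 ± 108 CPM and OPC at 90.5 ± 42.9 CPM, each within 1 SD of the next.

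Among the L1 family, Nrcam, a protein of the node of Ranvier that also guides axons, was highest in Cluster 7 at 998 ± 189 CPM (n = 15, range 710.0 to 1402). OPC had 791 ± 247 CPM and Cluster 5 had 510 ± 318 CPM, and Cluster 7 exceeded OPC in 11 of 14 mice. Neurons, Schwann cells and Cluster 2 came next at 243 ± 58.3, 241 ± 95.1 and 208 ± 106 CPM, which are within 1 SD of each other. Cluster 6 had 11.2 ± 22.3 CPM and the myeloid cells had 0 UMIs.

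Nfasc, whose glial form anchors myelin at the paranode and whose neuronal form gathers sodium channels, was spread over more clusters than Nrcam. Its means were 1117 ± 678 CPM in the oligodendrocytes of Cluster 4 (n = 15), 1005 ± 765 CPM in OPC, 694 ± 214 CPM in Cluster 7, 522 ± 196 CPM in neurons, 446 ± 155 CPM in Schwann cells and 408 ± 151 CPM in Cluster 8. Each of these lies within 1 SD of the next. The order of the leading pair turned to OPC when cells were thinned to 1000 UMIs or when 30 cells per mouse were asked for. Chl1, a close relative of L1cam, was like Nrcam highest in Cluster 7 but low in OPC, with 555 ± 150 CPM in Cluster 7, 406 ± 312 CPM in Cluster 5, 351 ± 249 CPM in Schwann cells (n = 5) and 240 ± 144 CPM in neurons. OPC had 106 ± 58.7 CPM of Chl1, below Cluster 7 and neurons in 14 of 14 mice. L1cam, the founding member and a promoter of axon growth, was sparse, with 39.1 ± 28.5 CPM in neurons, 29.9 ± 21.5 CPM in OPC and 3 UMIs in all of Cluster 7. In myeloid cells it was at 82.5 CPM (26 UMIs) in 1 cKO mouse at 7 d and at 31.3 CPM (2 UMIs) in 1 uninjured WT mouse. It was at 0 CPM in the myeloid cells of both genotypes at 1 d.

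By the share of cells with a UMI at equal depth, Cluster 7 led for Nrcam and also for Cntn1, whose mean CPM was higher in OPC. These shares pool the cells of all mice, which kept from 81 to 1273 cells each. The order is not given mouse by mouse, and for Cntn1 the 2 shares were close. After thinning each cell to 1000 UMIs, which keeps 55.2% of the cells, 60.0% of the cells of Cluster 7 held a UMI of Nrcam, 45.8% of OPC, 23.0% of Cluster 5 and 1.21% of Cluster 6. Without thinning the shares were 72.5% in Cluster 7, at a median of 2882 UMIs per cell, and 2.43% in Cluster 6, at a median of 780.5. Cntn1 was found in 64.7% of thinned cells of Cluster 7, 61.4% of OPC, 36.6% of Cluster 5 and 0.692% of Cluster 6. Free RNA was neither removed nor measured.

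Injury was compared with no injury at each time point, with the genotypes pooled and the mouse as the replicate. By the sample titles, which the groups here follow, every injured mouse had more Nrcam in Cluster 7 than any uninjured mouse. Nfasc had higher means after injury in several clusters, most of all in OPC at 7 d. Chl1 had higher means at 14 d in neurons and Cluster 4 of both genotypes. In OPC and Clusters 5 and 7 its means were higher at 14 d in cKO mice alone, and in Cluster 8, at low levels, they were lower in both genotypes. No member passed the threshold of an adjusted p of 0.05 in any class. At 1 d, edgeR called 0 of 80 pairs of a member and a class of cells, where 0.0600% of all pairs of a gene and a class were called. At 7 d it called 0 of 87 (0.0574% of all pairs), and at 14 d 0 of 87 (0.162% of all pairs). Member pairs with an unadjusted p under 0.05 numbered 3, 5 and 2, 3.75%, 5.75% and 2.30% of those tested, beside 7.02%, 6.84% and 7.35% of all pairs, and DESeq2 called 0 at each time. The classes were 14 single clusters and 3 combinations of them, which overlap, and the comparisons share the uninjured mice. Clusters 12, 13 and 14 had too few uninjured cells for these comparisons, Cluster 2 too few at 1 d, and Clusters 15, 16 and 17 were not fitted. All 10 members passed the filter on low counts in neurons and endothelial cells, 8 in OPC, 7 in Cluster 5 and 5 in Cluster 7.

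In Cluster 7, Nrcam was at 839 and 710.0 CPM in uninjured WT mice and 756 and 748 CPM in uninjured cKO mice, in replicates 1 and 2. At 1 d it was 1063 CPM in the WT mouse and 1154 and 1096 CPM in cKO. Mice at 7 d had 849 and 1076 CPM in WT and 1402 and 1082 CPM in cKO, and mice at 14 d 926 and 1043 CPM in WT and 1085 and 1147 CPM in cKO. All 11 injured mice thus lay above all 4 uninjured mice, by as little as the step from 839 to 849 CPM. The cell names call cKO uninjured replicate 2 (748 CPM) a WT mouse at 7 d, and under them the separation is lost, with differences of 0.21 at 7 d and 0.38 at 14 d. The log2 differences from the uninjured mice were 0.24, 0.37 and 0.48 at 1 d, 7 d and 14 d, with a 95% interval of −0.04 to 1.01 at 14 d (edgeR adjusted p = 0.859, 0.846 and 0.717), so no difference and differences up to 1.01 are both inside it. The value at 7 d was 0.16 without WT 7 d replicate 2. These differences use TMM scaling, and the plain CPM means were 1105 at 1 d, 1102 at 7 d and 1050.2 at 14 d against 763 in uninjured mice. A p that misses the threshold does not show that values did not differ. The median difference of the 5 members tested in Cluster 7 was 0.22, 0.34 and 0.41, beside −0.30, 0.0049 and 0.07 over all genes tested. Other classes differed. In endothelial cells the member medians were −1.74, −0.91 and −0.045, beside −0.091, −0.042 and −0.014 over all genes. In Cluster 4 they were −1.20, 0.41 and 0.48, beside −0.096, 0.025 and 0.017. The medians at 1 d include members with 0 UMIs in the 1 WT mouse. These were 6 of the 10 tested in endothelial cells, 3 of 8 in Cluster 4 and 1 of 5 in Cluster 7. Plain endothelial means at 1 d were 11.2 against 7.84 CPM in uninjured mice for Cntn2 and 5.86 against 5.93 CPM for Cntn3. The 1 d medians are therefore not read as a fall of the members.

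Nfasc in OPC was at 473 and 124 CPM in uninjured WT mice and 260.3 CPM in the uninjured cKO mouse with enough cells, on 80 UMIs in all. At 7 d it was 1562 and 1607 CPM in WT and 2905 and 1016 CPM in cKO, on 743 UMIs. The 7 d mice all lay above the uninjured mice, in either batch, and cKO 7 d replicate 1 stood far above the rest. The difference was 2.56 on the log2 scale (standard error 0.76, 95% interval 0.97 to 4.15, edgeR adjusted p = 0.696, n = 4 and 3), beside a median of 0.14 over all genes in OPC. With the replicate number as a block it was 2.44 (edgeR adjusted p = 0.554, in a range from 0.0636 to 0.942 over the alternatives). The 6 oligodendrocyte markers summed to 4437, 4058 and 5163 CPM in the OPC of the uninjured mice and to 6632, 4086, 17994 and 10331 CPM at 7 d, in the same order of mice, with 0 of them at 0 over the cluster. Their part in the difference was not tested.

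In the oligodendrocytes of Cluster 4, Nfasc was at 850.4 and 401 CPM in uninjured WT and 698 and 344 CPM in uninjured cKO mice. The 7 d mice had 1016 and 3229 CPM in WT and 1280 and 1010 CPM in cKO. Again all 4 mice at 7 d were above all 4 uninjured mice, and WT 7 d replicate 2 was far above the others. That mouse also had the highest Cntn1 of this cluster, 1052 CPM against 31.5 to 269.9 CPM in the other mice. The difference of Nfasc was 1.36 (standard error 0.44, edgeR adjusted p = 0.823, n = 4 and 4). It was 0.78 without WT 7 d replicate 2 and 0.31 when mice were grouped as the cell names state. At 1 d and 14 d the differences were 0.70 and 1.00 in Cluster 4 (edgeR adjusted p = 0.825 and 0.818), 1.44 and 1.42 in OPC (edgeR adjusted p = 0.842 and 0.822) and 1.33 and 1.17 in Cluster 8 (edgeR adjusted p = 0.629 and 0.481), where 7 d gave 1.16. Mean levels of Nfasc in Cluster 8 were 221 CPM in uninjured mice and 487, 448.4 and 447.6 CPM at 1 d, 7 d and 14 d. They were also higher after injury in Cluster 7 (527 CPM, then 716, 835 and 705 CPM), so the direction was not particular to oligodendrocyte lineage cells. In Cluster 5 they were 161 CPM, then 575, 376 and 205 CPM. Only shallow mice there exceeded the uninjured range of 99.8 to 278 CPM. They had 699.5 and 785 CPM at 1 d and 375 and 711 CPM at 7 d. Oligodendrocyte markers of Cluster 5 were also low in these mice, as given below, and their part was not tested. In Cluster 2 the WT means were 295 CPM uninjured, 57.5 CPM at 7 d and 106 CPM at 14 d. The cKO means there were 68.8, 110.5 and 188 CPM.

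Chl1 in neurons had the lowest adjusted p of all members. It was at 162 and 163 CPM in uninjured WT and 147 and 182 CPM in uninjured cKO mice, and at 14 d at 244 and 377 CPM in WT and 658 and 275 CPM in cKO. All 4 mice at 14 d were above all 4 uninjured mice, and cKO 14 d replicate 1 was the highest. The difference was 1.19 (standard error 0.40, 95% interval 0.37 to 2.01, edgeR adjusted p = 0.172), beside a median of 0.04 over all genes in neurons, and it was 0.70 without cKO 14 d replicate 1. Mean Chl1 at 14 d was also above that of uninjured mice in Cluster 4 (127 against 52.1 CPM). It was so in OPC (145 against 72.3 CPM) and Cluster 7 (573 against 444 CPM), but there in cKO mice alone. Their means were 200 against 21.7 CPM (1 uninjured mouse, 1 UMI) in OPC and 638 against 349 CPM in Cluster 7. WT means were 89.5 against 97.6 CPM in OPC and 508 against 539 CPM in Cluster 7. In Cluster 5 Chl1 was lower in WT (245 against 299 CPM) and higher in cKO (197 against 112 CPM, 1 uninjured mouse). In Cluster 8 it was low throughout, and lower in WT (10.8 against 16.1 CPM) and in cKO (29.5 against 43.2 CPM, 1 uninjured mouse, 2 UMIs). With the replicate number as a block the difference in neurons was 1.25 (edgeR adjusted p = 0.103, in a range from 0.0722 to 0.999 over the alternatives). The 7 neuron markers summed to 2517, 1928, 3013 and 2030 CPM in the uninjured mice and to 1902, 1880, 1745 and 1788 CPM at 14 d, in the same order, with Rbfox3 the most abundant and 0 at 0 over the cluster. All 14 d sums were below the uninjured ones, and the part of this in the result was not tested.

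**Figure D2:**
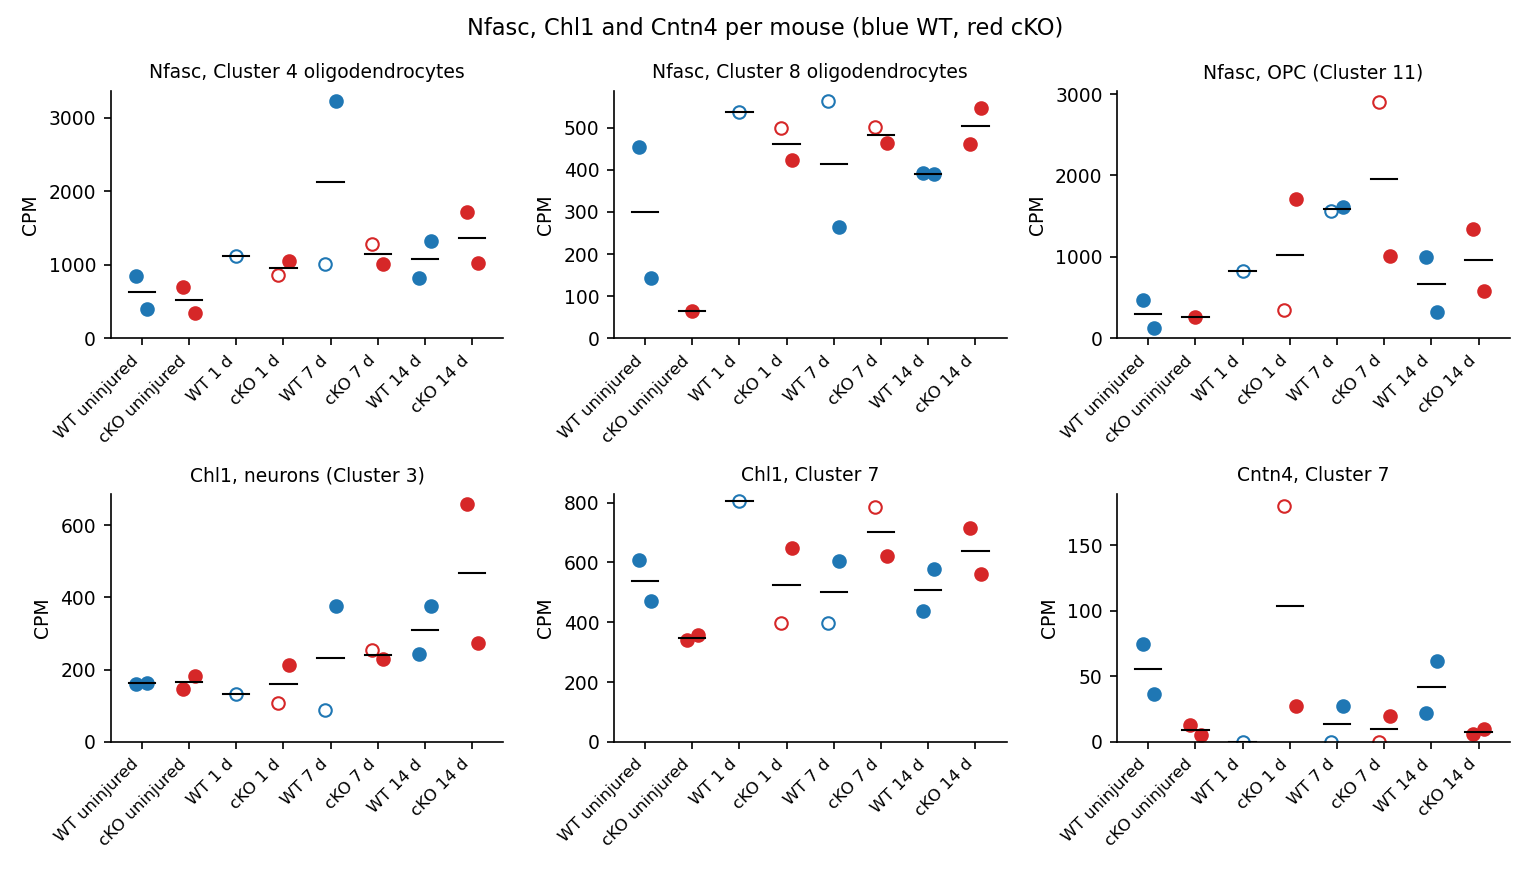
Level of Nfasc in Clusters 4, 8 and 11, of Chl1 in Clusters 3 and 7 and of Cntn4 in Cluster 7 in each mouse, in CPM, for uninjured mice and mice at 1 d, 7 d and 14 d (blue WT, red cKO, open circles mice with a median under 600 UMIs per cell, black lines group means). Nfasc in Cluster 11 lies between 1016 and 2905 CPM in the 4 mice at 7 d and between 124 and 473 CPM in the 3 uninjured mice.

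Genotype was compared within each time point and as a mean over the injured time points, which asks whether the loss of Ryk changed the members. Nrcam was higher in Cluster 7 of cKO than of WT mice at each time after injury, by amounts smaller than their error, and Cntn4 was lower there in cKO mice when uninjured and at 14 d. For the mean over injury edgeR called 0 of 91 member pairs, where 0.000843% of all pairs were called, with 5 (5.49%) at an unadjusted p under 0.05, beside 3.39% of all pairs, and 0 by DESeq2. In uninjured mice it called 0 of 87 (0.000912% of all pairs, and 0.0147% of genes in Cluster 10, which held the 1 call), with 7 (8.05%) at an unadjusted p under 0.05, beside 3.49% of all pairs, and 0 by DESeq2. At 1 d it called 0 of 84, where 0% of all pairs were called, with 5 (5.95%) at an unadjusted p under 0.05, beside 3.75% of all pairs, and 0 by DESeq2. At 7 d it called 0 of 91 (0.00506% of all pairs), with 2 (2.20%) at an unadjusted p under 0.05, beside 1.86% of all pairs, and 0 by DESeq2. At 14 d it called 0 of 91 (0.0506% of all pairs), with 3 (3.30%) at an unadjusted p under 0.05, beside 1.93% of all pairs, and 0 by DESeq2. The injury effect in cKO against that in WT gave 0 of 87 (0.00182% of all pairs), with 6 (6.90%) at an unadjusted p under 0.05, beside 3.99% of all pairs, and 0 by DESeq2. These shares rest on 2 to 7 pairs, some of which are the same genes in overlapping classes, and over all 9 comparisons, injury included, the share was 4.84% of 785 member pairs beside 4.33% of 1013491 pairs. All 5 member pairs at 1 d set cKO mice against 0 UMIs in the 1 WT mouse: Nfasc and Cntn2 in neurons, Cntn1 in endothelial cells, and Cntn4 in Cluster 4 and in Clusters 4 and 8 together. The endothelial cells of that mouse also had 0 UMIs of Nfasc. In neurons the median over all genes was 5.99 at 1 d and 2.01 in the mean over injury. The WT mouse at 1 d enters the genotype comparison at 1 d, the mean over injury, the injury effect in cKO against that in WT and the injury comparison at 1 d, and no fold of these pairs is given.

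For Nrcam in Cluster 7 the cKO mice lay above the WT mice at each of the 3 times after injury, and the genotypes overlapped among the uninjured mice. Mean levels after injury were 1161 CPM in cKO (n = 6) and 992 CPM in WT (n = 5). The mean difference over injury was 0.24 on the log2 scale (standard error 0.24, 95% interval −0.25 to 0.73, edgeR adjusted p = 0.870), beside a median of 0.18 over all genes of the cluster, of which 0.0126% were called. By time it was −0.14 uninjured, 0.29 at 1 d, 0.25 at 7 d and 0.18 at 14 d. The medians over all genes of the cluster were −0.02, 0.37, 0.03 and 0.0056 in the same order. For Nrcam at 7 d the interval was −0.52 to 1.01. The sign at 7 d rests on WT 7 d replicate 1, a shallow mouse with 32 UMIs of Nrcam in this cluster. Without that mouse the difference was −0.0247. The injury effect in cKO exceeded that in WT by 0.38 (standard error 0.45, edgeR adjusted p = 0.924), beside a median of 0.32 over all genes. With the replicate number as a block the mean difference was 0.21. It was 0.14 without WT 7 d replicate 1, 0.38 without WT 7 d replicate 2 and 0.07 with mice over a median of 600 UMIs per cell, an alternative chosen after seeing the data. In OPC the cKO mice lay below the WT mice at 7 d, with Nrcam at 565 and 632 against 707 and 1319 CPM. The OPC means were 715 CPM in cKO and 887 CPM in WT at 14 d, where the genotypes overlapped, and 883 and 828 CPM at 1 d.

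In Cluster 5, Nrcam was at 786 and 175 CPM in uninjured WT mice and 197 CPM in the uninjured cKO mouse with enough cells. At 1 d it was 884 CPM in WT and 1213 and 472 CPM in cKO, and at 7 d 938 and 315 CPM in WT and 497 and 347 CPM in cKO. At 14 d it was 383 and 302 CPM in WT and 359 and 269 CPM in cKO. The 5 highest values were those of replicate 1 of uninjured WT mice and of replicate 1 of both genotypes at 1 d and 7 d, and the genotypes overlapped at 7 d. In those 5 mice the oligodendrocyte markers of Cluster 5 summed to 2467, 1657, 3782, 2252 and 3731 CPM, against 8811 to 18552 CPM in the other mice, with Mbp the most abundant and 0 of 6 at 0 over the cluster, and their part in these levels was not tested. The difference at 7 d was −0.33 (standard error 0.95, 95% interval −2.29 to 1.63, edgeR adjusted p = 1), and with the replicate block it was −0.25. Without WT 7 d replicate 1 it was 0.03, and with cells thinned to 1000 UMIs it was 0.69.

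For Cntn1 in Cluster 7 the genotypes overlapped in uninjured mice and at 14 d and did not at 7 d. There it was at 1279 and 1094 CPM in uninjured WT and 1356 and 834 CPM in uninjured cKO mice, and at 1 d at 1159.8 CPM in WT and 1190.1 and 1004 CPM in cKO. At 7 d it was 1168 and 1378 CPM in WT and 1486 and 1413 CPM in cKO, and at 14 d 1069 and 1416 CPM in WT and 1262 and 1072 CPM in cKO. The cKO mice were above the WT mice at 7 d alone. The difference at 7 d was 0.12 (standard error 0.39, 95% interval −0.65 to 0.89, edgeR adjusted p = 1.0), and it was −0.125 without WT 7 d replicate 1 and −0.0304 without cKO 7 d replicate 2. The mean over injury was 0.04. In Cluster 5 at 7 d, Cntn1 was at 751 and 582 CPM in WT and 995 and 630.0 CPM in cKO, a difference of 0.31 (standard error 0.94, 95% interval −1.62 to 2.25, edgeR adjusted p = 1).

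**Figure D3:**
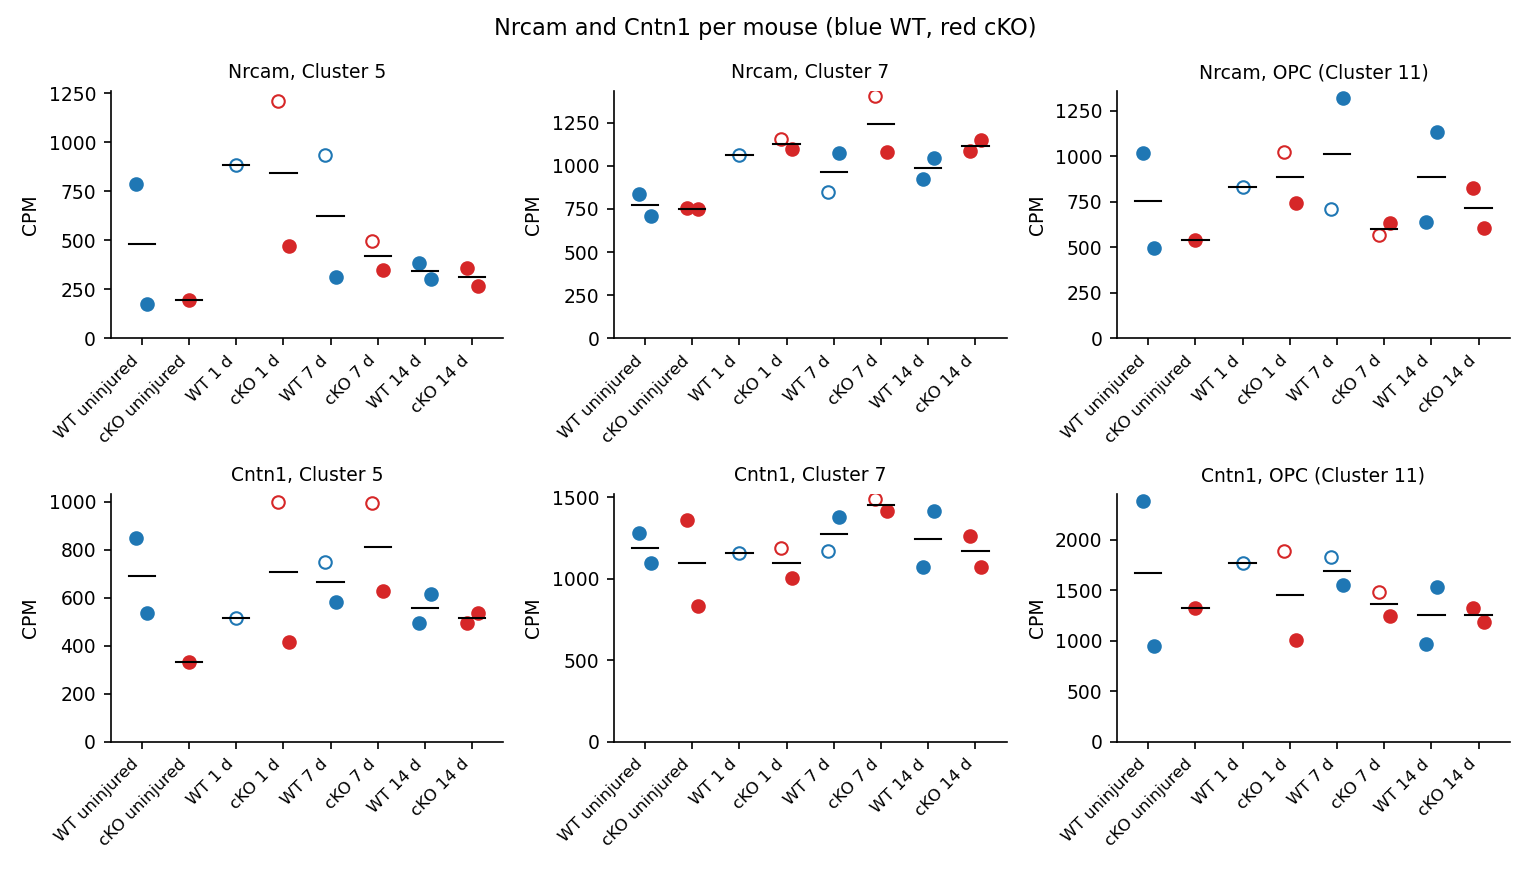
Level of Nrcam and Cntn1 in Clusters 5, 7 and 11 in each mouse, in CPM, for uninjured mice and mice at 1 d, 7 d and 14 d (blue WT, red cKO, open circles mice with a median under 600 UMIs per cell, black lines group means). Nrcam in Cluster 7 lies between 849 and 1402 CPM in the 11 injured mice and between 710.0 and 839 CPM in the 4 uninjured mice.

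The share of cells with a UMI of Nrcam in Cluster 7, at 1000 UMIs per cell, was also compared. It was 62.5% in WT and 71.2% in cKO at 7 d, with 1 mouse each, and 58.2% and 65.6% in WT and 65.9% and 66.2% in cKO at 14 d. The cKO mice were higher at both times, by 6.42 percentage points on average (exact two-sided permutation test within time points, p = 0.167, the smallest the 12 assignments allow). The difference was 1.63 points in Cluster 5 (exact permutation p = 0.667) and 2.905 points in Clusters 2, 5 and 7 together (exact permutation p = 0.5). For Cntn1 it was 5.68 points in Cluster 7 (exact permutation p = 0.167) and −0.0585 points in Cluster 5 (exact permutation p = 1), but −6.49 points in Cluster 2 (exact permutation p = 0.333) and −0.475 points in the 3 clusters together (exact permutation p = 1). The shallow mice kept too few cells for this comparison.

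Cntn4 in Cluster 7 had the lowest unadjusted p of all members, at few molecules. It was at 75.0 and 36.2 CPM (22 and 5 UMIs) in uninjured WT and 13.04 and 5.34 CPM (1 and 1 UMIs) in uninjured cKO mice. At 14 d it was 22.4 and 61.7 CPM (5 and 36 UMIs) in WT and 5.68 and 9.99 CPM (2 and 6 UMIs) in cKO. The WT mice were above the cKO mice at both times. The difference was −2.95 in uninjured mice (edgeR adjusted p = 0.942) and −2.44 at 14 d (standard error 0.67, 95% interval −3.78 to −1.09, edgeR adjusted p = 0.352, n = 2 and 2). At 1 d and 7 d there was no such order, with 0 CPM in WT and 180.3 and 27.5 CPM in cKO at 1 d, and 0 and 27.4 CPM in WT and 0 and 20.1 CPM in cKO at 7 d. Leaving out WT 14 d replicate 1 gave −2.83 at 14 d with an adjusted p of 0.0366, and leaving out WT 14 d replicate 2 gave −1.41 with an adjusted p of 0.966, in a range of adjusted p from 0.0366 to 1 over the alternatives. Grouping the mice as the cell names state gave 0.76. In Cluster 6 Cntn4 was at 8.02 CPM, near the cKO values in uninjured mice and at 14 d and below those of 180.3, 27.5 and 20.1 CPM at 1 d and 7 d.

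Genes whose products work with the members were counted from lists. The contactin-associated proteins (6 genes), which pair with contactins on the axon, all had their highest mean in neurons, with Cntnap2 at 1634 CPM and Cntnap1 at 75.6 CPM, and 0 of 269 gene and class pairs were called by edgeR over all comparisons (11, or 4.09%, at an unadjusted p under 0.05). Over all genes 374 of 1013491 pairs were called and 4.33% had an unadjusted p under 0.05. Ank3, the ankyrin that anchors L1 family proteins at the node, was at 1550 CPM in Cluster 4, 1350 CPM in neurons and 50.1 CPM in Cluster 7. Ank2, another ankyrin, was highest in Cluster 7 at 2770 CPM, against 1453 CPM in neurons and 1390 CPM in Cluster 4. Of the 8 ankyrins, spectrins and 4.1 proteins, 1 of 824 pairs rose and 0 fell (4.98% at an unadjusted p under 0.05). Ptprz1 was at 2058 CPM in OPC and 1184 CPM in Cluster 7, the clusters with the most Cntn1, and Tnr, an extracellular matrix ligand of Cntn1, was at 4050 CPM in OPC and 27.4 CPM in Cluster 7. Of the 16 binding partners and co-receptors, 1 of 1419 pairs was called higher in cKO and 0 lower (6.20% at an unadjusted p under 0.05). The 4 sheddases had 0 of 396 pairs called (18, or 4.55%, at an unadjusted p under 0.05), and of the 11 nodal and juxtaparanodal channels, 0 of 775 pairs rose and 1 fell (31 at an unadjusted p under 0.05).

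The pairs called were Scn4b, Epb41l3 and Tnc, and no call held under all alternatives. Scn4b and Epb41l3 were called in fits with many calls over all genes. At 14 d against uninjured mice, 81 of 10238 genes were called in neurons and 32 of 9268 in Clusters 6 and 10 together. Scn4b, a sodium channel subunit, was at 108, 114, 49.1 and 138 CPM in neurons of uninjured mice and at 33.8, 35.0, 35.7 and 46.7 CPM at 14 d, in the order WT replicates 1 and 2 and cKO replicates 1 and 2. All 14 d mice were lower, and it fell by 1.47 on the log2 scale (standard error 0.37, edgeR adjusted p = 0.0475), a call lost in 20 of 26 alternatives. Its difference was −1.94 to −0.867 without 1 mouse and −1.98 to −0.417 under the other alternatives. The neuron markers given with Chl1 also summed lower in all 14 d mice of this cluster, and their part was not tested. Epb41l3, a 4.1 protein of the paranode, was at 19.4, 7.51 and 11.5 CPM in Clusters 6 and 10 of the uninjured mice, on 7 UMIs, and at 57.2, 85.4, 86.1 and 83.4 CPM at 14 d. All 14 d mice were higher, and it rose by 2.55 (standard error 0.53, edgeR adjusted p = 0.0403), a call lost in 9 of 23 alternatives. The size of the difference changed little, at 2.43 to 2.99 without 1 mouse and 2.51 to 2.75 otherwise. Cluster 10 held 25703, 27330 and 23562 of the 257636, 133129 and 86903 UMIs of this class in the uninjured mice, and 338283, 809204, 978701 and 606613 of 699401, 1511075, 1615112 and 1091401 at 14 d, and the part of this change in make-up was not tested. Tnc, a matrix protein, had 0 UMIs in fibroblasts of the WT mouse at 14 d and 1 and 54 UMIs in the cKO mice (edgeR adjusted p = 0.0243), so the call rests on cKO 14 d replicate 2. It was lost in 14 of 16 alternatives, with an adjusted p of 1 under the replicate block.

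The patterns of 4 members over the 17 clusters were compared with those of 10194 genes, as Pearson's r of log2 mean CPM plus 10, a description in which depth and free RNA are shared. Gpm6a (0.97), Ptprz1 (0.96) and Gpt2 (0.94) were most like Nrcam, and Adgrb2 (0.96) and Adgrb1 (0.96) most like Cntn1. Pcdh9 (0.97), Sox2ot (0.96) and Ncam2 (0.96) were most like Nfasc, and Kcnk1 (0.94) and Gpm6a (0.94) most like Chl1. Nrcam had r = 0.90 with Chl1 and 0.89 with Cntn1.

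The promoters of Nrcam and Chl1, whose patterns were alike, are shown because Ryk belongs to Wnt signalling, whose TCF and LEF factors bind a short core. Sequences of 300 bases come from RefSeq (GRCm38.p6), on the plus strand here, and 16 promoters matched the 10 members. The core was searched as CTTTGA and CTTTGT on both strands, and capitals mark each match. It was present in 10249 of 32851 promoters (31.2%). Of the 10 members with their 16 promoters, Chl1, Cntn1, Cntn4 and Cntn6 had it in a promoter. The first count is of promoters and the second of genes, so they are not compared. The Nrcam promoter (chr12:44328635-44328934, 74.0% GC) had 0 matches and that of Chl1 (chr6:103510626-103510925, 53.7% GC) had 2. A match is a run of letters and not a shown binding site. The paper cites Nrcam as a known target of β-catenin and LEF-1. A lack of matches in 300 bases cannot decide that, because sites elsewhere were not searched.
Nrcam: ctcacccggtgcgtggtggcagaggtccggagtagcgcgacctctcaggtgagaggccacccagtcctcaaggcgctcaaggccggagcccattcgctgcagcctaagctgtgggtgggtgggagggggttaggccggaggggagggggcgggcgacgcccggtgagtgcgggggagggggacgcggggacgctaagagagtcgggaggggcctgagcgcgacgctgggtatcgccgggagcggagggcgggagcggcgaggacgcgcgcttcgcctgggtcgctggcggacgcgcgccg
Chl1: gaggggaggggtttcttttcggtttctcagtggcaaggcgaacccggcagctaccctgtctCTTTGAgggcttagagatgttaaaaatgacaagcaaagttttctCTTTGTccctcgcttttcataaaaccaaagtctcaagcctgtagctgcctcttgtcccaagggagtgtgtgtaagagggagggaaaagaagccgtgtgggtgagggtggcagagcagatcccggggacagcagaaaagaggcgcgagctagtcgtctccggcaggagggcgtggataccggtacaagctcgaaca

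The study designed 3 antisense oligonucleotides against Nrcam and used NrCam-2 and NrCam-3 in animals, and they are shown because they tie the gene measured here to its transcript. Each of the 3 is 20 bases long and the reverse complement of a site in Nrcam alone among the annotated mouse transcripts, and the control matched 0 transcripts. NrCam-1 matches 4 Nrcam transcripts at chr12:44572221-44572240, in coding exon 22 of 31. NrCam-2 matches 5 at chr12:44329017-44329036, in the untranslated part of exon 1, and NrCam-3 matches 5 at chr12:44550011-44550030, in coding exon 10. The sites are on the plus strand, the 5′ to 3′ target of each oligonucleotide is in capitals, and no library of oligonucleotide-treated tissue was analysed here.
NrCam-1 oligonucleotide: ccacgctgacgcgaacattt
NrCam-1 target: AAATGTTCGCGTCAGCGTGG
NrCam-2 oligonucleotide: ctgtcgtgcgtgtttccgaa
NrCam-2 target: TTCGGAAACACGCACGACAG
NrCam-3 oligonucleotide: gacggctcctaatgcgtttt
NrCam-3 target: AAAACGCATTAGGAGCCGTC
Control oligonucleotide: gcgactatacgcgcaatatg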

How the data were processed

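Single-cell RNA of spinal cord was measured in 16 mice. The authors made the deposited UMI counts with Cell Ranger on mm10, kept cells with over 200 genes and under 25 percent mitochondrial UMIs, and clustered them with R 4.1.2, Seurat and Harmony. The deposited cell table of the authors gives for each cell the percent of UMIs from mitochondrial genes.

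Counts were summed per mouse and cluster, or 3 combinations of clusters, for mice with at least 10 cells. They were tested with edgeR 4.0.16 quasi-likelihood (TMM, filterByExpr, all conditions in one fit, R 4.3.3, limma 3.58.1, data.table, version 1.17.8), with Benjamini and Hochberg's correction over all genes of a class and a threshold of 0.05. A group left with 1 mouse is assumed to vary like the others. Fitting was tested on simulated data. Shares were compared by exact permutation after thinning cells to 1000 UMIs. Tables and figures used Python 3.11.15, numpy 2.4.6, scipy 1.17.1, pandas 2.3.3 and matplotlib 3.10.9.

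Depth was 536263 to 9008729 UMIs per mouse, so 1 UMI of a mouse is a large step for sparse members, as the UMIs given show. WT 1 d replicate 2 (1 cell) was left out. No doublet caller was run and free RNA was not removed. The deposited batch number equals the replicate number; the replicate block was checked by the correlation between groups of the difference of replicates 1 and 2, with a median r of 0.0604 in Cluster 7 and 0.230 in Cluster 4, and tried as an alternative.

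Further alternatives were DESeq2 1.42.0, no filter on low counts, the animal number series, the condition in the cell names, 30 cells, thinned cells, under 10 percent mitochondrial UMIs, the compared conditions alone, each mouse left out, and, chosen after seeing the data, no cells with shared barcodes and mice with a median over 600 UMIs. Members and lists were chosen with earlier results of these data known. All 10 members and Ryk are named. Of the partner lists, genes past the threshold (up to 5 per comparison and class) are named, and always Cntnap1, Cntnap2, Ank3, Ptprz1 and Tnr. Ank2 was added beside Ank3 after seeing its levels. For 4 members, genes among the 3 with the highest r are named, of those with at least 50 CPM in a cluster. Gene positions are from GENCODE vM21.

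Limits are few mice per group, 1 WT mouse at 1 d, 4 shallow libraries that are replicate 1, cell names that state other conditions for 6 mice, clusters that mix markers, and Cre activity that was not measured in these libraries. Levels are of 3′ tags, so isoforms such as those of Nfasc are not told apart, and protein was not analysed here.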

Additional observations from a re-analysis of the deposited data

How the results depend on the processing

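The number of member and class pairs called was 0 for the mean genotype difference and for injury at 1 d, 7 d and 14 d by edgeR, by DESeq2, with the replicate block (0 in each) and without any 1 mouse (0 to 0). It was 1 without the filter on low counts (mean genotype difference) and 1 with the animal number series (14 d), Cntn1 in endothelial cells each time, where 0.0207% and 1.81% of all gene and class pairs were called, against 0.000843% and 0.162% in the main analysis. The cause was not tested.

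The log2 difference of Nrcam in Cluster 7 over injury kept its sign in 26 of 26 alternatives (0.21 with the replicate block, 0.145 to 0.376 without 1 mouse, and 0.0733, the lowest, with mice over a median of 600 UMIs), as did Nrcam in Clusters 2, 5 and 7 together (0.0372 to 0.155 without 1 mouse, 0.0699 to 0.305 otherwise) and Cntn1 in Cluster 5 at 7 d in 25 of 25 (0.0692 to 0.650 without 1 mouse, 0.123 to 0.664 otherwise). At 7 d the sign turned for Nrcam in Cluster 7, from 0.25 to −0.0338 with mice over a median of 600 UMIs, a choice made after seeing the data, in a range of −0.0247 to 0.660 without 1 mouse. Nrcam in Cluster 5 turned from −0.33 to 0.692 with thinned cells and 0.187 with mice over 600 UMIs (−0.591 to 0.0345 without 1 mouse). Cntn1 in Cluster 7 turned from 0.12 to −0.00464 with mice over 600 UMIs (−0.125 to 0.458 without 1 mouse, and −0.0304 without cKO 7 d replicate 2). In each case the cause was not tested.

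For Nrcam in Cluster 7 against uninjured mice, Nfasc in OPC and in Cluster 4 at 7 d, Chl1 in neurons at 14 d and Cntn4 in Cluster 7, alternatives were chosen after seeing the data. Nrcam at 7 d (0.163 to 0.508 without 1 mouse, 0.206 to 0.562 otherwise) and 14 d (0.427 to 0.522, 0.377 to 0.561), Nfasc in OPC (2.10 to 3.23, 2.09 to 2.61), Nfasc in Cluster 4 (0.782 to 1.68, 0.307 to 1.66), Chl1 (0.697 to 1.44, 0.744 to 1.33) and Cntn4 in uninjured mice (−3.37 to −2.26, −3.37 to −1.45) kept their sign, with adjusted p values over the threshold in each alternative. Cntn4 at 14 d turned from −2.44 to 0.764 with the condition in the cell names, was −2.92 to −1.41 without 1 mouse, and passed the threshold without WT 14 d replicate 1; the cause was not tested. All 210 mean levels under alternatives stayed within 1 SD. No value was given by thinned cells for Cntn4 in Cluster 7 and Epb41l3, by 30 cells for Nfasc in OPC, by the compared conditions alone for Cntn4 in uninjured mice, by mice over 600 UMIs and without WT 1 d replicate 1 for the calls at 1 d, by several settings for Tnc, and by some settings without 1 uninjured cKO mouse.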
